A study of Gallus gallus with 25 samples.

Results

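The male chicken gonad was followed from embryonic day (E) 5.5, when it is still an undifferentiated ridge, to E9.5, when it has become a testis. Of the 25 microRNA arrays in the series, 7 were compared here: 4 of Male E9.5 gonads (replicates 1-1, 1-2, 2 and 3) and 3 of Male E5.5 gonads (replicates 2, 3 and 6). They were chosen by their labels, as all Male E9.5 and Male E5.5 arrays with the array chip number 4011845. Male E9.5 embryos were at Hamburger and Hamilton (HH) stages 35 to 36 and Male E5.5 embryos at HH 27 to 28. No treatment or mutation is named in the labels, and every array held RNA shorter than 200 nt from whole gonads of several embryos, pooled by sex. E9.5 embryos were sexed by eye from the shape of the gonads, whereas E5.5 embryos were sexed by PCR, so the stage and the means of sexing cannot be told apart. Whether replicates 1-1 and 1-2 share a pool is not stated, and the p-values measure the spread between arrays, part of which may be technical. In RNA of whole gonads, fewer cells of a type and less RNA per cell cannot be told apart.

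MicroRNAs are short RNAs that lower the output of messenger RNAs with a site matching the seed, bases 2 to 8 counted from the 5′ end of the microRNA. One hairpin precursor gives up to 2 mature strands, of which the rarer was once marked with a star, and neighbouring hairpins are often cut from one long transcript. Between these stages the supporting cells of the male gonad form cords around the germ cells, and mesenchyme, steroid-producing cells and blood vessels fill the space between the cords. In other vertebrates miR-199 and miR-214 are known from mesenchyme, miR-143 and miR-145 from smooth muscle and fibroblasts, miR-451 from red blood cells, and let-7 from tissues that leave an early embryonic state.

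The probes that carry the result are printed 5′ to 3′ as the scanner files give them, and each is the DNA complement of the microRNA it was made to catch. The capitals mark the stretch opposite the seed, so that probes with the same capitals catch microRNAs with the same seed.
gga-miR-199a: gaacaggtagtctgaACACTGGg
dre-miR-199*: aaccaatgtgcagaCTACTGTa
gga-let-7a: aactatacaacctaCTACCTCa
mmu-let-7a: actatacaacctaCTACCTCa
gga-let-7c: aaccatacaacctaCTACCTCa
dre-miR-26a: agcctatcctggatTACTTGAa
gga-miR-26a: gcctatcctggatTACTTGAa
hsa-miR-451: aaactcagtaatggtAACGGTTt
dre-miR-451: aactcagtaatggtAACGGTTt
gga-miR-31: cagctatgccaacaTCTTGCCt
The prefixes name the species a probe was designed for: gga is chicken, dre zebrafish, hsa human, mmu mouse and rno rat. A probe not designed for chicken reads whichever RNA of the chicken gonad it can bind. Several pairs are nearly one probe: gga-let-7a holds the whole of mmu-let-7a with 1 base more, and the same is true of dre-miR-26a over gga-miR-26a and of hsa-miR-451 over dre-miR-451. The gga-let-7a and gga-let-7c probes differ at 1 base, so cross-binding between these 2 family members cannot be told apart from their own signal.

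Levels are log2 intensities, background-corrected and quantile-normalised between arrays, and they are compared between stages for one probe at a time. Differences are Male E9.5 minus Male E5.5 with the standard error (SE) of a limma model over the 18 arrays of the chip, whose Benjamini-Hochberg adjusted p is given beside them. Of 657 mature probes, 123 exceeded the negative control probes on at least 3 of the 7 arrays and were tested. In males 11 were called at an adjusted p under 0.05, which is 8.94% of those tested, all 11 higher at E9.5 and 0 lower (0%). With 4 arrays at E9.5 and 3 at E5.5, the filter could be met through one stage alone: 10 tested probes, 2 of them called, exceeded the negative controls on no Male E5.5 array, and 0 did so on no Male E9.5 array. The called gga-let-7a, gga-let-7c, dre-miR-143, dre-miR-451 and hsa-miR-451 exceeded them on 4 Male E9.5 arrays and 1 Male E5.5 array each. Their Male E9.5 arrays alone met the filter, so it favoured a higher level at E9.5 in these too. With no filter 15 of 657 probes were called, 13 higher and 2 lower. At an unadjusted p under 0.05 there were 21 higher and 6 lower. The median difference of all 123 probes was 0.058 on the log2 scale, with 64 above and 59 below 0.

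**Figure D1:**
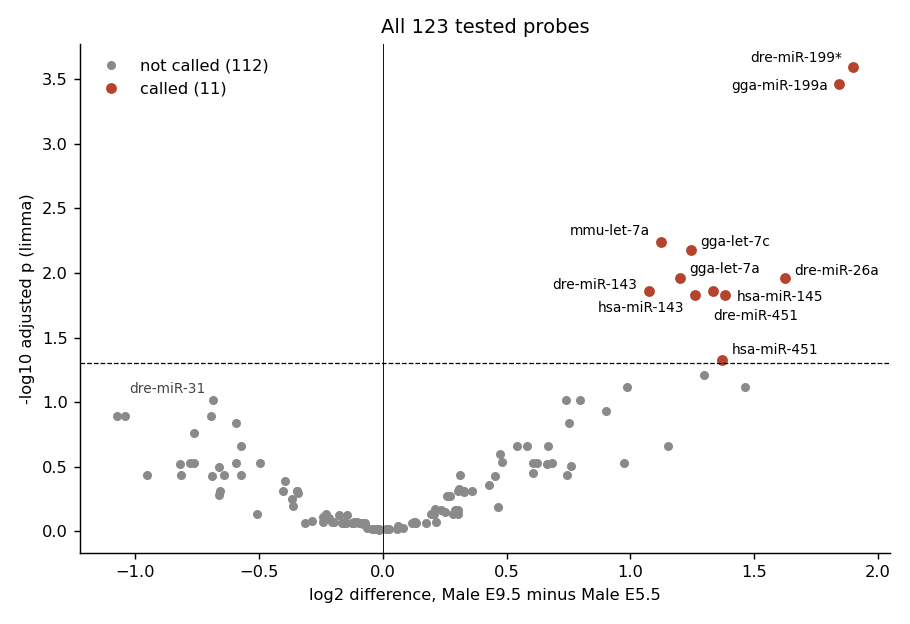
Log2 difference of Male E9.5 minus Male E5.5 (x axis) against -log10 of the adjusted p (y axis) for the 123 tested probes, with the dashed line at an adjusted p of 0.05. The 11 called probes lie on the right with both miR-199 probes at the top, and none lies above the line on the left.

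The arrays of the earlier stage were less alike. Over the tested probes, pairs of Male E9.5 arrays correlated at 0.777 to 0.909 and pairs of Male E5.5 arrays at 0.372 to 0.744. Between 87 and 154 mature probes exceeded the negative controls on a Male E9.5 array, against 51 to 126 on a Male E5.5 array. Male E5.5 replicate 2 had the 51. The cutoff was set on each array, at a raw intensity of 118 to 242 for Male E9.5 and 216 to 297 for Male E5.5. A raw intensity above it on one array could thus be below it on another, here and wherever arrays above the negative controls are counted. No pair of arrays held identical values, and with 4 and 3 arrays the precision is limited by their number. Scan exposure was 0.5 to 2 s in both groups. The number of calls was 5 without Male E5.5 replicate 2 and 17 without Male E5.5 replicate 3.

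Both miR-199 probes had the largest differences of the comparison. The dre-miR-199* probe, whose sequence is the complement of the strand now called miR-199-3p, had 9.86, 9.62, 9.62 and 9.67 on the Male E9.5 arrays, against 7.43, 8.14 and 7.82 on the Male E5.5 arrays. Every Male E9.5 array was above every Male E5.5 array, and the E9.5 values lay close together. The difference was 1.90 ± 0.27 (SE, adjusted p = 0.000255), a 3.73-fold higher intensity. The gga-miR-199a probe, for the other strand of the hairpin, had 9.46, 10.27, 9.42 and 9.61 at E9.5, against 7.72, 8.16 and 7.66 at E5.5. Here too the stages did not overlap. It differed by 1.84 ± 0.28 (SE, adjusted p = 0.000346), or 3.58-fold. Both miR-199 probes exceeded the negative controls on 2 of 3 Male E5.5 arrays. Replicate 2, where they did not, enters both folds. The 2 probes share no seed, so they read the 2 strands of the hairpin separately. In males at E6.5 their means were 8.30 ± 0.57 and 8.30 ± 0.33 (SD, n = 3 each), nearer to E5.5 than to E9.5. They passed in all 29 other ways of processing that tested them (in 1 more, which asked for signal on all 7 arrays, they were not tested), with log2 differences of 1.64 to 2.63 and 1.61 to 2.51.

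The probe of miR-214 was not called. In the GRCg7b gene table MIR214 lies within 10 kb of MIR199A2, one of the miR-199 genes. The dre-miR-214 probe had 8.48, 8.93, 8.99 and 7.71 at E9.5, against 9.27, 7.96 and 7.84 at E5.5. The stages overlapped, with the highest value on Male E5.5 replicate 2, and the difference was 0.17 ± 0.40 (SE, adjusted p = 0.855). On that array the raw intensity was 503, and that of the partner probe with 2 mismatched bases was 341. The partner thus exceeded the negative controls there (95th percentile 297). How much of the signal on that array was specific was not tested. Whether miR-214 and miR-199 changed by different amounts was not tested.

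The miR-145 and miR-143 probes, whose chicken genes lie within 10 kb of each other, all had a higher mean at E9.5, and 3 of the 4 were called. The hsa-miR-145 probe had 10.39, 10.65, 10.16 and 9.95 in Male E9.5 gonads, against 8.06, 9.51 and 9.15 in Male E5.5 gonads, the lowest again on replicate 2. The difference was 1.38 ± 0.35 (SE, adjusted p = 0.0149). In a limma fit of the 7 compared arrays alone it was 1.36 and did not pass (adjusted p = 0.0664). The dre-miR-145 probe, a shorter version of the same sequence, differed by 1.30 ± 0.41 with no overlap but did not pass (adjusted p = 0.0613). The hsa-miR-143 and dre-miR-143 probes are likewise 2 versions of one sequence. The dre-miR-143 probe had 8.10, 7.50, 8.10 and 7.82 at E9.5, against 6.64, 7.19 and 6.60 at E5.5, with a difference of 1.07 ± 0.26 (SE, adjusted p = 0.0137). It exceeded the negative controls on 1 of 3 Male E5.5 arrays, so this size is uncertain. The hsa-miR-143 probe was above the negative controls on 3 Male E9.5 arrays and on 0 Male E5.5 arrays, so its size has only a bound. It averaged 7.68 ± 0.28 (SD, n = 4) at E9.5 and 6.42 ± 0.10 (SD, n = 3) at E5.5, with a adjusted p of 0.0149. Set against the lowest signal above the negative controls on each E5.5 array, its mean was at least 1.09-fold higher. Bounds of this kind rest on the means and leave out the sampling error. Without Male E5.5 replicate 2 the differences of hsa-miR-145 (0.97), dre-miR-143 (1.00) and hsa-miR-143 (1.26) no longer passed.

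The mesenchyme and smooth muscle list has 9 probes on the array, of which 7 were tested. The others were made for miR-199b: hsa-miR-199b exceeded the negative controls on no array and mmu-miR-199b on 2, of Male E9.5. Among all 7 tested probes, 5 were called higher and 0 lower, beside 8.94% over all tested probes. Their median difference was 1.30 beside 0.058. One of the 5, hsa-miR-143, exceeded the negative controls on Male E9.5 arrays alone. Another, dre-miR-143, did so on 4 of 4 Male E9.5 and 1 of 3 Male E5.5 arrays. The filter favoured a higher level at E9.5 in both. The mean level of the list ran from 8.90 to 9.23 on the Male E9.5 arrays, against 7.54 to 8.07 on the Male E5.5 arrays.

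**Figure D2:**
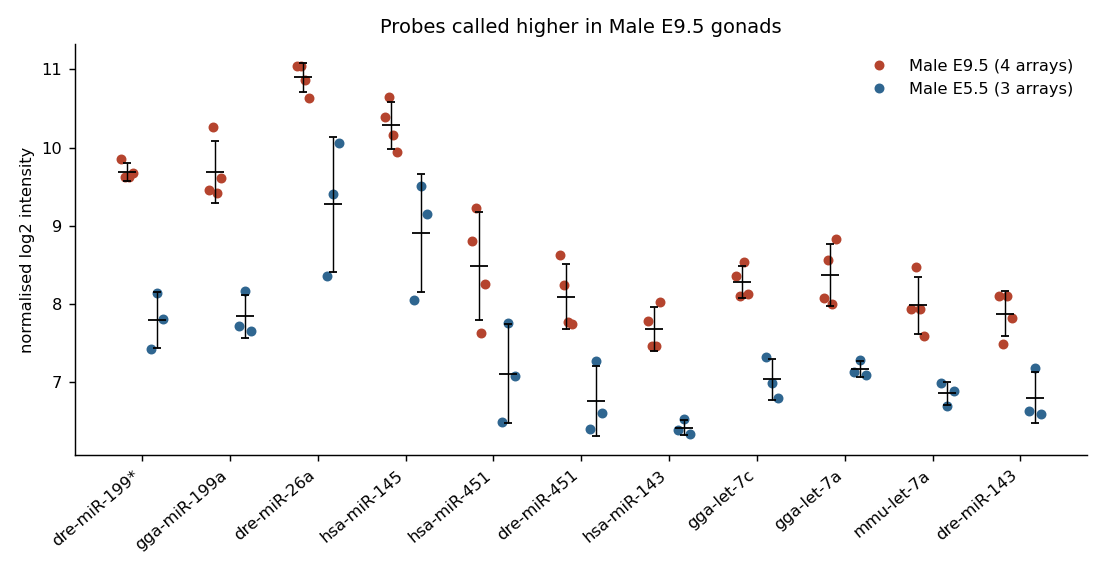
Normalised log2 intensity (y axis) of the 11 called probes on each Male E9.5 array (left, red) and each Male E5.5 array (right, blue), with mean and SD as bars. For 10 of the 11 probes every Male E9.5 array lies above every Male E5.5 array, and hsa-miR-451 overlaps.

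Of the 6 tested let-7 probes 3 were called, beside 8.94% over all tested probes. Of the 3 called, mmu-let-7a exceeded the negative controls on Male E9.5 arrays alone. The gga-let-7a and gga-let-7c probes did so on 4 of 4 Male E9.5 and 1 of 3 Male E5.5 arrays. The filter thus favoured a higher level at E9.5 in all 3. The gga-let-7c probe had 8.36, 8.10, 8.54 and 8.14 in Male E9.5 gonads, against 7.32, 6.99 and 6.80 in Male E5.5 gonads. It differed by 1.25 ± 0.27 (SE, adjusted p = 0.00660), with no overlap. It exceeded the negative controls on 1 of 3 Male E5.5 arrays, so this size is uncertain. The gga-let-7a probe had 8.077, 8.568, 8.001 and 8.837 at E9.5, against 7.13, 7.28 and 7.10 at E5.5. The E5.5 arrays lay within a narrow band and all E9.5 arrays were above it. Only 1 of 3 Male E5.5 arrays exceeded the negative controls here, so most of this band was not above them. The difference of 1.20 ± 0.28 (SE, adjusted p = 0.0110) is therefore uncertain in size. The mmu-let-7a probe, shorter by 1 base, had 7.94, 8.48, 7.94 and 7.59 at E9.5, against 6.999, 6.702 and 6.885 at E5.5 (1.12 ± 0.23, SE, adjusted p = 0.00576). It was above the negative controls on 4 of 4 Male E9.5 and 0 of 3 Male E5.5 arrays, which makes its mean at least 1.34-fold higher. These 3 calls held without Male E5.5 replicate 2.

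Of 19 let-7 probes on the array, 6 were tested, with a median difference of 0.96. The 2 others made for the main strand also had no overlap between the stages but did not pass. The hsa-let-7d probe had 7.65, 7.82, 7.73 and 7.52 in Male E9.5 gonads, against 6.81, 7.13 and 6.70 in Male E5.5 gonads (0.80 ± 0.29, SE, adjusted p = 0.0968). It exceeded the negative controls on 4 Male E9.5 arrays and 1 Male E5.5 array, so its size is uncertain and the filter favoured a higher level at E9.5. The gga-let-7b probe exceeded the negative controls on 0 of 3 Male E5.5 arrays, so its size has only a bound. Its mean was at least 1.12-fold higher, but it was not called (adjusted p = 0.220). The star strand probe mmu-let-7d* had a difference of -0.20 ± 0.43 (SE, adjusted p = 0.850). The gene table places MIRLET7C within 10 kb of MIR99A, and one let-7a gene (MIRLET7A2) within 10 kb of MIR100. The gga-miR-99a probe had 8.57, 9.27, 8.48 and 8.59 at E9.5, against 7.01, 8.47 and 7.99 at E5.5. The stages just failed to overlap, and its difference of 0.90 ± 0.34 did not pass (SE, adjusted p = 0.118). The gga-miR-100 probe differed by 0.14 ± 0.40 (SE, adjusted p = 0.855).

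The miR-26 and miR-30 families, found in many differentiated tissues, gave 1 call between them. The dre-miR-26a probe had 11.04, 11.04, 10.87 and 10.64 in Male E9.5 gonads, against 8.36, 9.41 and 10.06 in Male E5.5 gonads. The stages did not overlap, but the E5.5 arrays spread widely and replicate 2 was lowest. The value 11.04 is the highest that the normalised scale takes. It differed by 1.62 ± 0.38 (SE, adjusted p = 0.0110), and by 1.18 without that array, which did not pass (adjusted p = 0.0759). The gga-miR-26a probe, the same sequence shortened by 1 base, had 9.95, 10.06, 9.68 and 10.16 at E9.5, against 9.02, 9.62 and 8.99 at E5.5. Its difference of 0.75 ± 0.31 (SE, adjusted p = 0.145) did not pass. The 2 probes thus gave unlike sizes for one microRNA, and whether they differ was not tested.

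Of 11 miR-30 probes, 6 were tested and 0 called, and all 6 had differences above 0, with a median of 0.71. This sign was favoured by the filter in 3 of them, gga-miR-30b, gga-miR-30d and dre-miR-30e, which exceeded the negative controls on no Male E5.5 array. The filter also favoured it in gga-miR-30c and dre-miR-30c, which exceeded them on 1 of 3 Male E5.5 arrays each. The sign was the same for 6 of 6 without background correction and with 75th percentile scaling, and for the 4 tested in the authors' series table. These settings used the same arrays and the same filter, so they cannot show the sign free of the filter. With 75th percentile scaling 1 of the 6 probes, gga-miR-30c, was called. The gga-miR-30c probe had 8.89, 9.19, 8.14 and 8.09 in Male E9.5 gonads, against 6.45, 6.44 and 8.45 in Male E5.5 gonads. Replicate 6 of E5.5 lay among the E9.5 values, and the difference of 1.46 ± 0.49 did not pass (SE, adjusted p = 0.0770). The gga-miR-30a-5p probe differed by 0.74 ± 0.26 (SE, adjusted p = 0.0968), with no overlap. The dre-miR-30e probe had only a bound, a mean at least 1.09-fold higher, and was not called (adjusted p = 0.0760). It was called in 5 of the other ways of processing. On Male E5.5 replicate 3 its partner with 2 mismatched bases was brighter than the probe itself (raw 218 beside 169). The median ratio of perfect match over mismatch was 1.76 at E9.5 and 1.07 at E5.5.

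Both probes of miR-451, a microRNA of red blood cells, were called higher. The dre-miR-451 probe had 8.62, 8.25, 7.77 and 7.75 in Male E9.5 gonads, against 6.41, 7.27 and 6.61 in Male E5.5 gonads, with no overlap. Its difference was 1.33 ± 0.33 (SE, adjusted p = 0.0137), and it failed to pass in 6 of 29 other ways of processing (adjusted p from 0.00127 to 0.128). The hsa-miR-451 probe, longer by 1 base, had 8.81, 9.23, 7.64 and 8.26 at E9.5, against 6.49, 7.76 and 7.09 at E5.5, and here Male E9.5 replicate 2 was below Male E5.5 replicate 3. It differed by 1.37 ± 0.42 (SE, adjusted p = 0.0471) and failed to pass in 21 of 29 other ways of processing (adjusted p from 0.00736 to 0.261). Neither call held without Male E5.5 replicate 2. Each of these probes exceeded the negative controls on 4 of 4 Male E9.5 and 1 of 3 Male E5.5 arrays. Both sizes are therefore uncertain, and the filter favoured a higher level at E9.5.

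The array holds 4 probes for red blood cell microRNAs. The miR-144 probes, whose chicken gene lies within 10 kb of the miR-451 gene, exceeded the negative controls on 0 of the 7 arrays. The mean level of both miR-451 probes ran from 7.70 to 8.74 at E9.5, against 6.45 to 7.52 at E5.5. The amount of blood in the pools, and its part in the other differences, was not tested.

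Markers of several other cell types did not exceed the negative controls. On none of the 7 arrays did any probe exceed them for white blood cells (6 probes), skeletal and heart muscle (8), liver (2) or kidney (6). For epithelium 2 of 13 probes did so on at least 1 array, for endothelium 1 of 2, and for germ line and pluripotent cells 1 of 16, and none of these met the filter. One of them, the epithelial probe gga-miR-205b, was above the negative controls on 0 of 4 Male E9.5 and 2 of 3 Male E5.5 arrays, and it was called lower where the filter asked for 3 of all 18 arrays. For nerve, 3 of 8 probes were tested, all of miR-124, with differences from -0.36 to 0.02 and 0 called. Of these, mmu-miR-124a was above the negative controls on 4 of 4 Male E9.5 and 3 of 3 Male E5.5 arrays. The gga-miR-124a probe was so on 4 and 1 and dre-miR-124 on 3 and 0, so miR-124 was detected at both stages. The other nerve probes, those of miR-9 and gga-miR-124b, exceeded the negative controls on 0 of the 7 arrays. The gonad marker miR-202, known from Sertoli cells of the mouse testis, was measured by 2 tested probes. The gga-miR-202 probe had 8.15, 7.67, 8.45 and 7.85 in Male E9.5 gonads, against 8.60, 6.94 and 7.64 in Male E5.5 gonads, and differed by 0.30 ± 0.41 (SE, adjusted p = 0.736). The dre-miR-202 probe had 7.77, 7.99, 8.20 and 7.67 at E9.5, against 8.77, 7.57 and 7.76 at E5.5 (-0.13 ± 0.35, SE, adjusted p = 0.855). Both had their highest value on Male E5.5 replicate 2, and the stages overlapped. The dre-miR-202 probe exceeded the negative controls on 4 of 4 Male E9.5 and 3 of 3 Male E5.5 arrays, and gga-miR-202 on 4 of 4 and 2 of 3. The other 3 probes of the gonad list were not tested: gga-miR-202* exceeded them on 0 of the 7 arrays, and hsa-miR-202 and mmu-miR-202 each on 1, of Male E5.5.

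**Figure D3:**
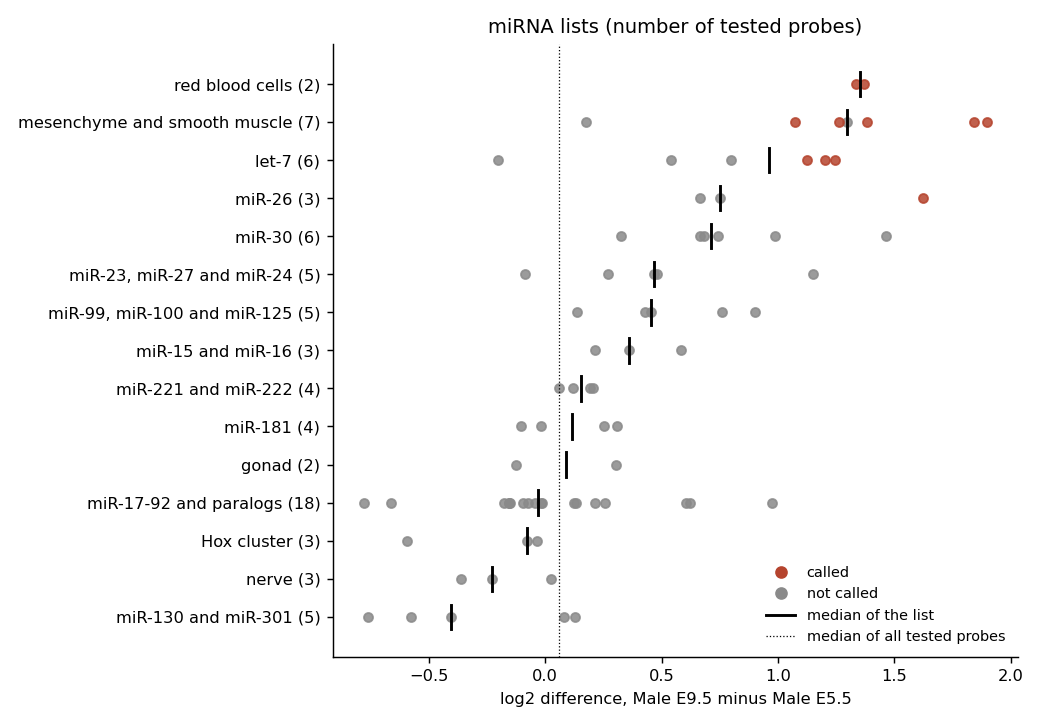
Log2 difference, Male E9.5 minus Male E5.5 (x axis), of each tested probe of 15 microRNA lists (rows, number of tested probes in brackets), with a bar at the median of each list and a dotted line at the median of all tested probes, 0.058. Called probes (red) occur in 4 lists: red blood cells, mesenchyme and smooth muscle, let-7 and miR-26.

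The list of the miR-17-92 cluster and its paralogs, known from dividing cells, had 18 tested probes of 31, of which 0 were called. Of these, 7 differences were above 0 and 11 below, with a median of -0.030. The list left out the tested dre-miR-17a (0.47, adjusted p = 0.250) and dre-miR-19c (0.61, adjusted p = 0.297), both with differences above 0. The dre-miR-19c probe exceeded the negative controls on no Male E5.5 array. The gga-miR-17-5p probe had 10.87, 10.87, 11.04 and 10.86 in Male E9.5 gonads, against 10.87, 10.87 and 11.04 in Male E5.5 gonads. Quantile normalisation gives the brightest probes of every array the same few values, 11.04 at the top, so this probe could hardly show a change. The dre-miR-20b probe differed by -0.78 (adjusted p = 0.297). The gga-miR-19b probe, above the negative controls on no Male E5.5 array, was not called (adjusted p = 0.295). Its mean was at least 1.47-fold higher, a bound that leaves out the sampling error. The tested probes on the lists of miR-15 and miR-16 (3), of miR-181 (4), of miR-221 and miR-222 (4), of miR-23 and miR-24 (5), of the Hox cluster (3) and of miR-99, miR-100 and miR-125 (5) included 0 calls. These lists left out the tested dre-miR-16b (0.31) and dre-miR-125c (0.75), which were not called either (adjusted p = 0.365 each).

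No probe was called lower, and the smallest adjusted p among those with a lower level at E9.5 was 0.0968, that of dre-miR-31. The dre-miR-31 probe had 7.31, 7.13, 7.50 and 6.95 in Male E9.5 gonads, against 7.74, 7.90 and 8.08 in Male E5.5 gonads (-0.69 ± 0.25, SE). The gga-miR-31 probe, which differs in length by 1 base, had 7.86, 7.91, 8.23 and 7.40 at E9.5, against 8.25, 8.60 and 8.79 at E5.5 (-0.70 ± 0.27, SE, adjusted p = 0.129). Neither probe overlapped between the stages, whereas mmu-miR-31, which differs from the chicken probe at 1 base, did (-0.50 ± 0.27, SE, adjusted p = 0.295). MIR31 lies on the Z chromosome, of which males have a pair. With 75th percentile scaling gga-miR-31 passed (-0.76, adjusted p = 0.0499).

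In 3 other probes with low p-values on this side, Male E5.5 replicate 2 had the highest value. The rno-miR-327 probe had 7.34, 7.39, 8.25 and 7.02 at E9.5, against 9.74, 7.79 and 8.20 at E5.5 (-1.07 ± 0.42, SE, adjusted p = 0.129). On Male E5.5 replicate 2 its mismatch partner exceeded the negative controls, with a raw intensity of 307 beside 672 for the probe. How much of that signal was specific was not tested. The hsa-miR-422b probe had 6.87, 6.80, 6.82 and 6.47 at E9.5, against 9.07, 7.37 and 6.91 at E5.5 (-1.04 ± 0.41, SE, adjusted p = 0.129). This probe exceeded the negative controls on 1 Male E9.5 array and 2 Male E5.5 arrays, so its size is uncertain. In the third, gga-miR-130b, replicates 2 and 6 of Male E5.5 were both above every Male E9.5 array. The gga-miR-130b probe had 8.28, 8.54, 8.85 and 8.07 in Male E9.5 gonads, against 9.79, 8.53 and 9.27 in Male E5.5 gonads (-0.76 ± 0.33, SE, adjusted p = 0.173). The dre-miR-130b probe differed by -0.58 ± 0.28 (SE, adjusted p = 0.220), dre-miR-130a by 0.13 ± 0.24 and gga-miR-130a by 0.08 ± 0.46, although MIR130B and MIR130A lie within 10 kb of each other. The dre-miR-196a probe, of a Hox cluster microRNA, differed by -0.59 ± 0.24 (SE, adjusted p = 0.145). In a fit of both chips with a chip term 6 probes were called lower: rno-miR-327 (-1.05), hsa-miR-422b (-1.01), gga-miR-130b (-0.88), dre-miR-130b (-0.78), gga-miR-31 (-0.70) and dre-miR-31 (-0.63).

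Among tested probes measured on each of the 7 arrays, 19 (15.6%) had every Male E9.5 array above every Male E5.5 array and 4 (3.28%) had every one below. The 4 were dre-miR-31, gga-miR-31, hsa-miR-422b and mmu-miR-292-5p, the last of which was named after its values were seen. The filter favoured the count of 19. Among the 19, mmu-let-7a, hsa-miR-143, dre-miR-30e, gga-let-7b, gga-miR-19b and dre-miR-16b exceeded the negative controls on no Male E5.5 array. The gga-let-7a, gga-let-7c, dre-miR-143, dre-miR-451 and hsa-let-7d probes did so on 1 Male E5.5 array each. All of these met the filter through their Male E9.5 arrays alone. In females, on 4 Female E9.5 and 3 Female E5.5 arrays of the same chip, the counts were 29 above (23.8%) and 19 below (15.6%).

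Whether the change belonged to the testis was asked by setting it against the change in females. The test of the male change minus the female change called 0 of 123 probes (0%) in limma, with 1 below 0.05 before adjustment, and the smallest adjusted p was 0.908. All 11 probes called in males had a higher mean in Female E9.5 than in Female E5.5 gonads, by 0.83 to 1.73 with a median of 1.14, against a median of -0.056 over all tested probes. In 10 of the 11, every Female E9.5 array was above every Female E5.5 array, beside 23.8% of the tested probes measured on all these arrays. Across the 123 probes the male and female differences correlated at r = 0.746 (Spearman's rho 0.759). That is a description across probes, which are not independent and share one normalisation.

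The gga-miR-199a probe had the second lowest p of the sex difference. It differed by 1.84 between the stages in males and by 1.00 in females, a male minus female change of 0.84 ± 0.40 (SE, adjusted p = 0.908). At E9.5 it read 9.69 ± 0.40 in males and 8.93 ± 0.27 in females (SD, n = 4 each). For dre-miR-199* the stage differences were 1.90 in males and 1.24 in females, for dre-miR-451 1.33 and 1.73, and for gga-let-7a 1.20 and 1.43. The lowest p belonged to dre-miR-20b, whose stage difference was -0.78 in males and 0.88 in females, with a male minus female change of -1.65 ± 0.62 (SE, adjusted p = 0.908). The others of the 6 lowest p-values were gga-miR-18a (0.71), dre-miR-23a (1.49), gga-miR-222a (0.78) and dre-miR-196a (-0.65), all with the same adjusted p. These tests do not show that the sexes changed alike.

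**Figure D4:**
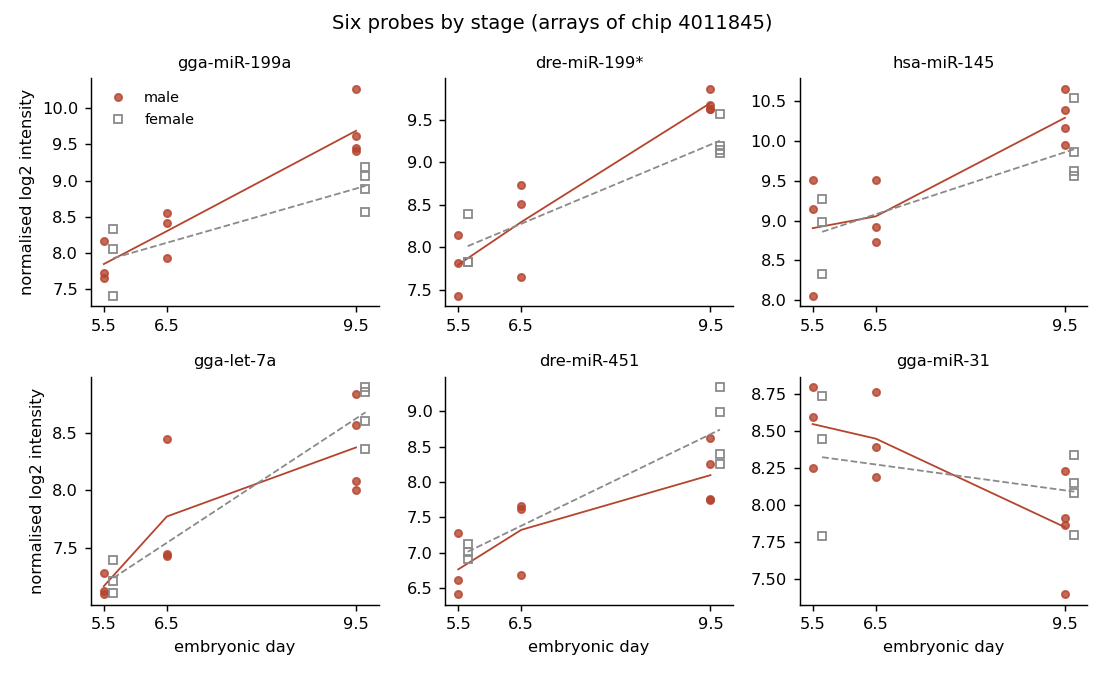
Normalised log2 intensity (y axis) by embryonic day (x axis) of 6 probes on the male arrays (filled circles, line through the means) and female arrays (open squares, dashed line, set slightly to the right). Male E6.5 means lie between those of E5.5 and E9.5 in each panel, and the female means lie higher at E9.5 than at E5.5 in every panel but gga-miR-31.

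Male E6.5 gonads (3 arrays of the chip, HH 29 to 30) were measured between E5.5 and E9.5. For 11 of the 11 called probes the Male E6.5 mean lay between the means of the other stages. These probes were picked for a wide gap between those stages, so a mean within it was likely beforehand. The share over all tested probes was not computed, and no course is drawn from this count. The hsa-miR-145 probe averaged 8.91 ± 0.75 at E5.5, 9.05 ± 0.40 at E6.5 (SD, n = 3 each) and 10.29 ± 0.30 at E9.5 (SD, n = 4). The gga-let-7c probe averaged 7.04 ± 0.26, 7.39 ± 0.21 and 8.28 ± 0.21 at the same stages, and dre-miR-451 6.76 ± 0.45, 7.32 ± 0.56 and 8.10 ± 0.42. The steps between neighbouring stages were not tested here.

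Each called probe was brighter than its partner with 2 mismatched bases on 7 of 7 arrays, and none of these partners exceeded the negative controls on any of them. For dre-miR-26a the median ratio of perfect match over mismatch was 16.3 at E9.5 and 6.49 at E5.5. For dre-miR-143 it was 2.58 and 1.38. The dye binds guanine, per the labels' protocols, so a level depends on the bases of the microRNA, while a difference of one probe between stages does not compare bases.

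Exposure varied within both stages. Position on the slide went largely with stage: the Male E9.5 arrays lay in sectors 3, 2, 3 and 4 and the Male E5.5 arrays in sectors 1, 1 and 2, so that only sector 2 held both. Among the arrays scanned at 2 s (2 Male E9.5 and 2 Male E5.5) the 11 called probes were all higher, by 0.91 to 1.93, and in the single pair scanned at 0.5 s by 0.59 to 2.29. In the single pair at sector 2 they were higher by 0.90 to 2.61. In a fit of the 2 s arrays alone, 3 probes were called: gga-miR-199a and dre-miR-199* higher and hsa-miR-328 lower, the last of which was named after its values were seen. The mismatch partner of hsa-miR-328 exceeded the negative controls on 2 of the 7 compared arrays. One was Male E5.5 replicate 3, scanned at 2 s, where it read 382 beside 718.5 for the probe. With exposure as a block 11 probes were called, and with the sector as a block 17 (15 higher, 2 lower).

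**Figure D5:**
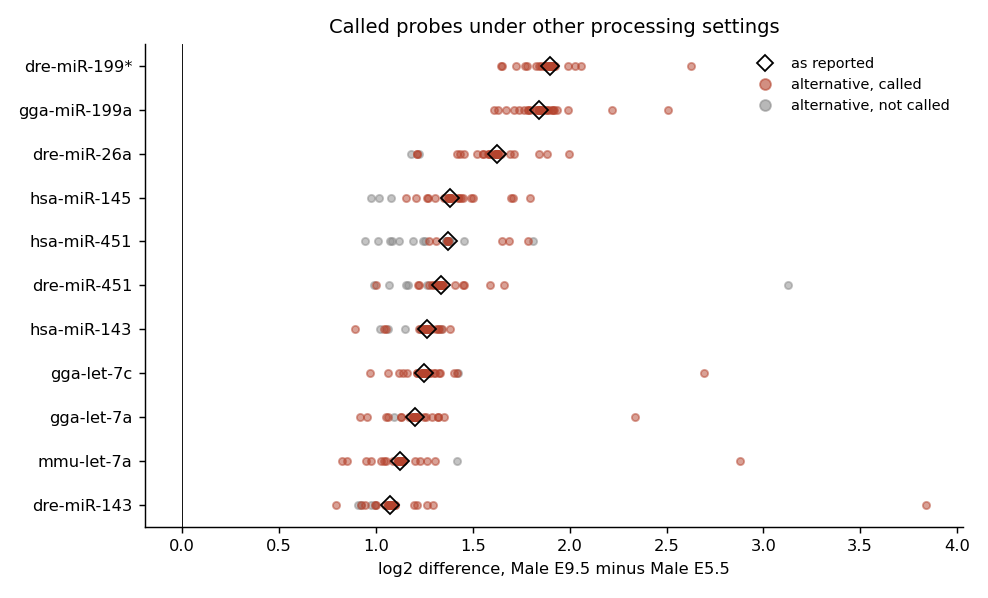
Log2 difference, Male E9.5 minus Male E5.5 (x axis), of the 11 called probes (rows) as reported (diamonds) and in the other ways of processing (circles, red where called and grey where not). All values lie above 0. Both miR-199 probes are called in 29 of the 29 settings that tested them and hsa-miR-451 in 8 of 29; 1 further setting tested only dre-miR-26a among the 11.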

How the data were processed

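Per the labels, small RNA of pooled gonads was labelled with Cy5 alone and put on one array per sample. Per the file headers, the scanner tables hold 1 median foreground intensity for each of 1412 probes per array, as deposited and with no scaling recorded. A series table of intensity values deposited by the authors related to the scanner medians of its array by an exact straight line, with low values blank and column medians of 2507 to 3673. It served as an alternative. The sources used here do not give how its constants were chosen.

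The medians were background-corrected over all spots (normexp, offset 50), put on the log2 scale, and the 657 perfect-match mature probes were quantile-normalised over the 18 arrays of the chip with limma 3.58.1 in R 4.3.3. Spots excluded by the authors (1 to 27 on the 7 compared arrays) were left out. A probe was tested if it exceeded the negative controls (95th percentile of 7) on at least 3 of the 7 compared arrays; 38 of the 123 were chicken probes, 3 chicken candidates and 82 of other species. One limma model with 6 group means (12 residual degrees of freedom) gave both comparisons, with Benjamini-Hochberg adjustment over the 123 probes. All 18 arrays carry one chip number, so no chip term was fitted, and the 7 arrays of the other chip entered an alternative only. Sectors repeat among the 18, as Male E5.5 replicates 2 and 3 both lay in sector 1. The chip number may thus cover more than one slide or hybridisation, and no such batch was modelled. Simulated data with known changes were used to check the model fit alone. They were drawn as normalised values with equal spread in every group, so background correction, normalisation and the filter were not checked.

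The named probes were up to 12 of the largest calls per direction (with under 6 calls, the 6 probes of lowest p), every called list member, all probes for the microRNA of a named chicken probe, miR-202, and the 6 lowest p-values of the sex difference. The members and lists were chosen with earlier results of these data known. Gene neighbours came from the RefSeq table of assembly GRCg7b.

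Replicate numbers 2 and 3 occur in both groups. Same-numbered arrays deviated from their group means with correlations of 0.55 (replicate 2) and -0.072 (replicate 3). The 0.55 was the highest of all pairs, and pairs of unlike number ran from -0.50 to 0.34. No such correlation was computed between Male E5.5 and Male E6.5 arrays. Replicate 2 was highest in both for gga-miR-202 (8.60 and 9.46), whereas for dre-miR-199* the highest replicate differed. The model did not pair the samples by number, and whether a number marks a shared batch was not tested. Alternatives changed the arrays fitted, background correction, scaling, filter, blocks and array weights.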

Additional observations from a re-analysis of the deposited data

Results flagged for a closer look

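Signal was seen in probes outside the main measurement. Of the 74 probes that tile microRNA hairpins, 12 were above the negative controls (their 95th percentile) on all 7 arrays. They lie on the hairpins hsa-mir-423 (4), gga-mir-17 (3), gga-let-7a-3 (2), gga-mir-20a (2) and gga-mir-16-1 (1), and none on gga-mir-122a-1, a liver microRNA tiled by 10 probes. A tiling probe can bind the mature strand as well as the hairpin, and which of them gave the signal was not tested. Of the 657 mismatch probes, 0 exceeded the negative controls on all 7 arrays. Dixon's test of single arrays was run on the 4 Male E9.5 arrays only, for the named probes and for array-wide measures. It found none apart in 33 such sets. The 3 Male E5.5 arrays were too few for it, so it says nothing about them.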

How the results depend on the processing

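All 11 called probes kept a higher level at Male E9.5 in every one of the 30 alternatives that tested them. The number of calls, 11 as reported, was 24 with both chips and a chip term (18 higher, 6 lower), 17 with the slide sector as a block (15 higher, 2 lower), 3 with the arrays at 2 s alone, and 1 when a probe had to exceed the negative controls on all 7 arrays, where fewer probes (36) were tested. Leaving out 1 array gave 5 (without Male E5.5 replicate 2) to 17 calls (without Male E5.5 replicate 3). The replicate number as a block gave 13 calls, 10 higher and 3 lower (hsa-miR-422b, rno-miR-327 and hsa-miR-519e*), 8 of them among the 11; dre-miR-143 and both miR-451 probes were lost. The numbers were not taken to pair the samples. A limma fit of the 7 compared arrays alone gave 10 calls, 9 of them among the 11. It lost hsa-miR-145 (adjusted p = 0.0664) and hsa-miR-451 (adjusted p = 0.125). In that fit dre-miR-26a, dre-miR-451, gga-let-7a, mmu-let-7a and dre-miR-143 passed narrowly, each at an adjusted p of 0.049. The other alternatives gave 9 to 15, and 8 without every replicate 2 array, a setting added after seeing the data. The sex difference gave 0 calls throughout. Signs turned only for probes that were not called, and the cause was not tested. With both chips gga-miR-130a was -0.16, mmu-let-7d* 0.079 and gga-miR-18a -0.10. With the sector block gga-miR-130a was -0.38, mmu-let-7d* 0.016, gga-miR-202 -0.16, gga-miR-18a -0.072 and dre-miR-23a -0.28. Array weights gave dre-miR-130a -0.078, gga-miR-130a -0.16 and dre-miR-202 0.069. At 2 s gga-miR-130a was -0.051 and dre-miR-202 0.43, with the exposure block gga-miR-130a was -0.040, in the series table mmu-let-7d* was 0.15, and without replicate 2 arrays dre-miR-202 was 0.15. Without single arrays, mmu-let-7d* ran from -0.68 to 0.28, gga-miR-130a from -0.13 to 0.28, dre-miR-202 from -0.36 to 0.24 and gga-miR-202 from -0.091 to 0.75. Only 36 of 657 probes exceeded the negative controls on all 7 arrays, which limits what these arrays can show for dim microRNAs.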
